A study of Mus musculus with 20 samples.

Results

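Platinum drugs cross cell membranes on carriers that normally move organic cations and copper, and 9 genes encoding such carriers were followed in mouse bone marrow and kidney after oxaliplatin. The 9 genes were chosen for their link to platinum drugs, with earlier results of these data known, and were found by gene symbol among the 55486 genes of each table. They are the organic cation transporters Slc22a2 and Slc22a3, the cation extruder Slc47a1, the copper carriers Slc31a1 and Slc31a2, the copper-transporting ATPases Atp7a and Atp7b, and the efflux pumps Abcc2 and Abcb1a. The samples were 20 bulk RNA libraries in 4 groups of 5 biological replicates: vehicle and oxaliplatin, each in bone marrow and in kidney. The animals were C57BL/6 mice, 10 weeks old at the start and described in the methods as male and female, which were injected intraperitoneally for 8 weeks, either with oxaliplatin (10 mg/kg) dissolved in 5% dextrose or with the dextrose by itself. Marrow was spun out of the long bones of the hind leg, tibia and femur, when 6 days had passed since the final injection, and is therefore a mixture of all marrow cells. The collection of the kidneys is not described, so the part of the organ and the time since the last dose are not known. Kidney RNA was purified on columns, whereas marrow RNA was first extracted with Trizol, so that tissue and extraction cannot be told apart in any comparison between the organs.

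Oxaliplatin is a platinum compound that damages DNA. In the kidney, organic cations enter proximal tubule cells from the blood through Slc22a2 (OCT2) on the basolateral side and leave into the urine through Slc47a1 (MATE1) on the apical side, and oxaliplatin is a known cargo of both human proteins. Slc22a3 (OCT3) is a broadly expressed relative of Slc22a2. Slc31a1 (CTR1) is the high-affinity copper importer of the plasma membrane, Slc31a2 (CTR2) is its intracellular relative, and Atp7a and Atp7b pump copper into the secretory pathway and out of the cell. All of these copper proteins have been linked to platinum handling. Abcc2 (MRP2) exports conjugated compounds, and Abcb1a is 1 of a pair of mouse genes for P-glycoprotein.

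Total counts per library ranged from 30660153 to 41140527 in marrow and from 24393007 to 30925430 in kidney, and no pair of libraries within a group was alike enough to be a duplicate. The tissue labels matched 2 marker lists. Genes of the loop of Henle and distal tubule summed to between 4407 and 5157 CPM, counts scaled to a common library size, in vehicle kidney and to between 8.38 and 10.8 CPM in vehicle marrow. Neutrophil genes summed to between 0.346 and 1.05 CPM in vehicle kidney and to between 13550 and 16510 CPM in vehicle marrow. Not every list was specific to its organ. Collecting duct genes summed to 3953 to 5757 CPM in vehicle marrow, where Slc4a1 was at 5120 ± 711 CPM, and to 353 to 480 CPM in vehicle kidney. Stem and progenitor genes summed to 251 to 284 CPM in vehicle kidney and to 34.4 to 44.0 CPM in vehicle marrow. Every library expressed Y-linked genes, at 77.5 to 173 summed CPM, with Xist at no more than 2.88 CPM, although the methods name both sexes. A gene was called when its Benjamini-Hochberg adjusted p in edgeR's quasi-likelihood test was under 0.05 and its change exceeded 1.5-fold. By that rule 23.3% of the 22363 genes tested in marrow and 11.5% of the 19293 tested in kidney were called between treatments, which is the background for the counts of transporters given here. In bulk RNA, fewer cells of a type and less RNA per cell cannot be told apart.

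The transporters had different ranks in the 2 organs. Divided by exon length, as RPKM, which allows genes to be compared, the level in vehicle kidney was highest for Slc47a1 (237 ± 13.1 RPKM, SD, n = 5), followed by Slc22a2 (137 ± 12.0), Abcc2 (45.8 ± 4.07) and Slc31a1 (32.6 ± 1.60). Slc31a2 (5.65 ± 0.402), Atp7a (3.09 ± 0.256), Atp7b (1.72 ± 0.168) and Abcb1a (1.17 ± 0.304) came next, and Slc22a3 was last at 0.260 ± 0.132 RPKM. No neighbours in that order overlapped in their range over the 5 libraries. In vehicle marrow the order began with Slc31a2 (18.0 ± 1.85 RPKM), Atp7b (8.00 ± 1.07) and Slc31a1 (6.83 ± 0.643), of which the last 2 overlapped. Atp7a (4.12 ± 0.246) and Slc22a3 (1.94 ± 0.277) followed, and Abcc2 and Abcb1a, at 0.554 ± 0.0665 and 0.439 ± 0.0925 RPKM, overlapped. Slc22a2 was close to the limit of counting in marrow, with 0 to 10 reads per vehicle library, and Slc47a1 had 0 to 2. The copper carriers therefore led in marrow, whereas in kidney the tubular cation and conjugate carriers did.

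**Figure D1:**
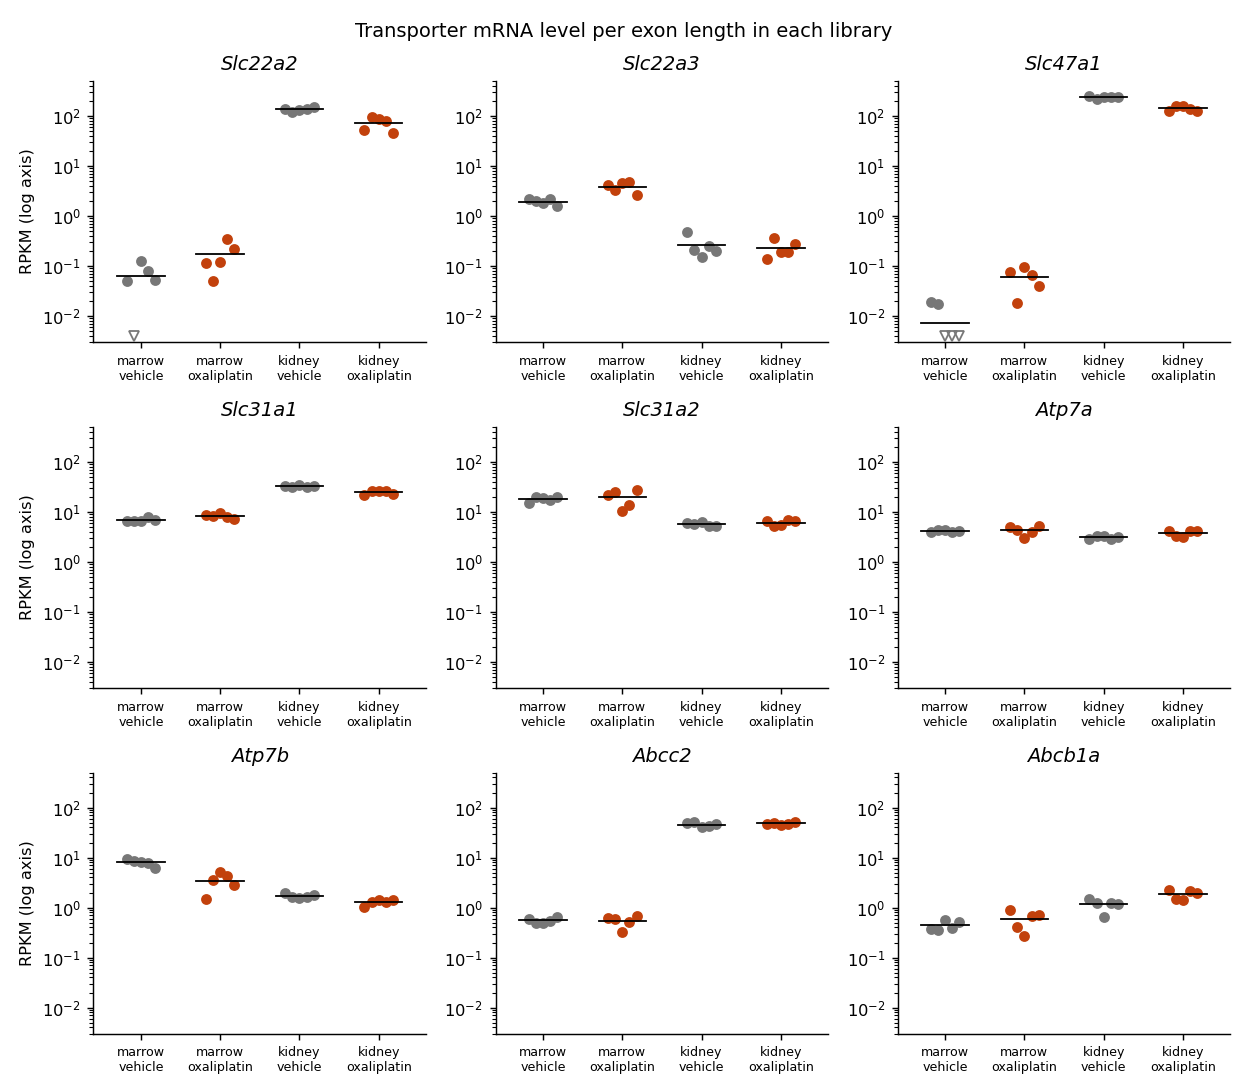
Level of each transporter in every library, in RPKM on a log axis, for the 4 groups of 5 libraries; grey points are vehicle, orange points oxaliplatin, black lines group means, and open triangles at the bottom mark libraries with no reads. Slc47a1 and Slc22a2 lie at 46.6 RPKM or more in all kidney libraries and at 0.350 RPKM or less in all marrow libraries, whereas Atp7a stays between 2.81 and 5.31 RPKM throughout.

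Between the vehicle groups, 8 of the 9 transporters were called in the fit of all 20 libraries, in which 72.9% of 24321 genes were called. Kidney was higher for 5 (34.6% of all genes were) and marrow for 3 (38.3% were). Slc22a2 and Slc47a1 passed the filter on low counts only through their kidney libraries and so had to differ, and of the other 7 transporters 6 were called, 3 in each direction. On CPM scaled over the 20 libraries, Slc47a1 was at 923 ± 54.3 CPM in kidney, and none of the 5 marrow libraries exceeded a floor of 3 counts, which makes kidney at least 9880-fold higher when its lowest library is set against the highest marrow floor. Slc22a2 was at 391 ± 34.2 CPM in kidney and 0.131 ± 0.0975 CPM in marrow, a ratio of means of 2980. Abcc2 was 111-fold higher in kidney (449 ± 40.5 against 4.04 ± 0.529 CPM, adjusted p = 1.05e-20), Slc31a1 6.43-fold (160.3 ± 7.94 against 24.9 ± 2.08 CPM, adjusted p = 9.87e-18) and Abcb1a 3.58-fold (7.35 ± 1.94 against 2.06 ± 0.443 CPM, adjusted p = 1.11e-06). The opposite held for Slc22a3, which was 5.53-fold higher in marrow (7.47 ± 1.00 against 1.35 ± 0.698 CPM, adjusted p = 2.76e-08), for Atp7b, 3.44-fold higher (44.4 ± 5.84 against 12.9 ± 1.32 CPM, adjusted p = 1.71e-07), and for Slc31a2, 2.37-fold higher (31.3 ± 3.34 against 13.2 ± 0.989 CPM, adjusted p = 9.33e-07). Atp7a was not past the threshold (31.1 ± 2.48 CPM in kidney and 30.7 ± 1.97 in marrow, log2 difference 0.02, 95% interval -0.22 to 0.26, adjusted p = 0.897), and scaling by library size alone turned its sign (log2 difference -0.41, adjusted p = 0.00654). Each organ thus had its own member of the Slc22 pair, Slc22a2 in kidney and Slc22a3 in marrow, and its own member of the Slc31 pair at the higher level, Slc31a1 in kidney and Slc31a2 in marrow.

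Slc22a2 and Slc22a3 are neighbours on chromosome 17, transcribed away from each other, with 76427 bases between their annotated starts. Other genes in that interval were not looked for. Slc22a2 (ENSMUSG00000040966) lies on the plus strand at chr17:12584132-12628488 and Slc22a3 (ENSMUSG00000023828) on the minus strand at chr17:12418960-12507704, both in GRCm38. The bases before both starts are shown because these neighbours were each at the higher level in a different organ and were each called between treatments there. They come from RefSeq on GRCm38.p6, are read 5′ to 3′ on the gene's own strand, end at the base before the first annotated transcribed base, and have each CG pair, the site of DNA methylation, in capitals.
Slc22a2, chr17:12583939-12584131, plus strand: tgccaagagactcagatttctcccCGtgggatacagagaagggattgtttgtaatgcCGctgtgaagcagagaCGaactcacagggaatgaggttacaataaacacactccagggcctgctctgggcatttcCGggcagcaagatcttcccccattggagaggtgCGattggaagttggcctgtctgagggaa
Slc22a3, chr17:12507705-12507954, minus strand: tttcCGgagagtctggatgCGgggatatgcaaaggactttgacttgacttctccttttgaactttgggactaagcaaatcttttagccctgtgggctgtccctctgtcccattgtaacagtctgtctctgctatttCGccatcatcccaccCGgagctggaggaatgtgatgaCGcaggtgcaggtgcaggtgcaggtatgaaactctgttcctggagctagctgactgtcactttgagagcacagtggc
In the 250 bases before its RefSeq start Slc22a2 had 6 CG pairs and Slc22a3 had 5, against a median of 6 over 32851 mouse promoter windows, of which 92.1% held at least 1. Over those 250 bases both counts were near that median. For Slc22a2 the RefSeq start lies 57 bases inside the GENCODE gene. Its stretch shown above was therefore cut to 193 bases and does not hold all 6 pairs. Atp7b had 24, but its RefSeq start lies 231 bases inside the GENCODE gene. Only 19 bases of its window lie before that gene, so its count is not comparable. Windows were found for 8 of the 9 genes, and Slc47a1 was the one not matched. Methylation was not measured.

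In kidney, the comparison asked whether the carriers that bring platinum into tubule cells and take it out again changed with treatment. The mRNA of both steps of cation secretion was lower with oxaliplatin: Slc22a2 fell 1.90-fold and Slc47a1 fell 1.66-fold. Abcb1a rose 1.60-fold, and the copper importer Slc31a1 and the copper pump Atp7b were lower by less than 1.5-fold. The 3 called transporters were 3 of 9 tested, against 11.5% of all kidney genes: 2 were lower, as were 3.81% of all genes, and 1 was higher, as were 7.68%. In 4 of the 9 all treated libraries lay below all vehicle libraries, as in 11% of all kidney genes.

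Slc22a2, the basolateral entry step, was at 349, 297, 329, 349 and 377 CPM in vehicle libraries 1 to 5 and at 132, 238, 217, 195 and 116 CPM in oxaliplatin libraries 1 to 5. Every treated library lay below every vehicle library, and treated libraries 1 and 5 were the lowest. The group means were 340.4 ± 29.7 and 179.6 ± 53.3 CPM, a log2 fold change of -0.92 (SE 0.191, adjusted p = 0.00515 in edgeR). Without treated libraries 1 and 5, a choice made after seeing the data, the change was -0.64 on the log2 scale (adjusted p = 3.12e-05).

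Slc47a1 (ENSMUSG00000010122, chr11:61343401-61378345, minus strand), the apical exit step and the transporter at the highest level in kidney, was at 848, 731, 818, 794 and 824 CPM with vehicle and at 432, 547, 539, 475 and 422 CPM with oxaliplatin. The groups did not overlap, as for 20.7% of all kidney genes in either direction, and libraries 1 and 5 were again the lowest treated ones. The means were 803 ± 44.4 and 483 ± 58.2 CPM, a log2 fold change of -0.73 (SE 0.0832, adjusted p = 1.09e-05). Because 12050 to 22718 reads lay behind each value, counting error was small beside the spread between mice.

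Of the cation carriers, Slc22a3 was scarce in kidney, with 16 to 59 reads per library. It was between 0.691 and 2.20 CPM with vehicle and between 0.610 and 1.65 CPM with oxaliplatin, and the groups overlapped (log2 fold change -0.17, 95% interval -0.88 to 0.54, adjusted p = 0.746). At that depth the interval was wide.

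**Figure D2:**
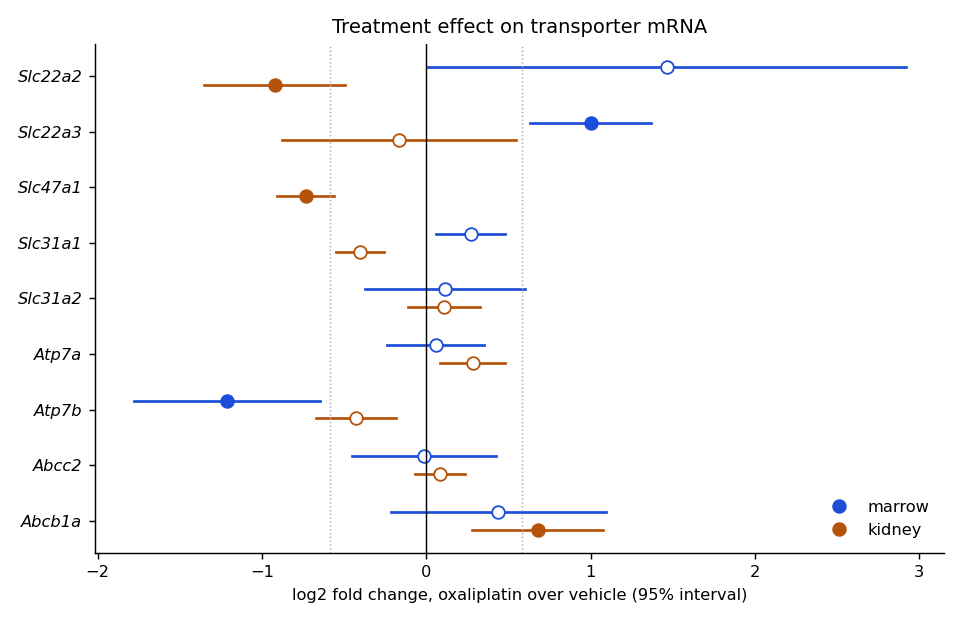
Log2 fold change of oxaliplatin over vehicle for each transporter with its 95% interval, in marrow (blue) and kidney (brown); filled points were called, dotted lines mark 1.5-fold, and Slc47a1 has no marrow value because it was not tested there. In kidney Slc22a2 and Slc47a1 lie at -0.92 and -0.73 and Abcb1a at 0.68, and in marrow Slc22a3 lies at 1.00 and Atp7b at -1.21.

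Among the copper transporters of the kidney, 0 of 4 were called in edgeR or in DESeq2. In edgeR 3 of them passed the adjusted p alone, which 29.4% of kidney genes did, and the same 3 had an unadjusted p under 0.05. Slc31a1, the copper importer, was at 138, 134, 149.9, 133 and 142 CPM with vehicle and at 94.6, 111, 113, 112 and 96.1 CPM with oxaliplatin. All treated libraries lay below all vehicle libraries, and the means of 139 ± 6.85 and 105 ± 9.11 CPM gave a log2 fold change of -0.40 (SE 0.0694, adjusted p = 0.000373). Atp7b was at 12.9, 10.7, 10.2, 10.5 and 11.7 CPM with vehicle and at 6.53, 8.35, 9.10, 8.32 and 9.39 CPM with oxaliplatin, again without overlap (log2 fold change -0.43, SE 0.116, adjusted p = 0.0104), although scaling by library size alone took its adjusted p to 0.068. Atp7a, the other copper pump, had a log2 fold change of 0.28 (SE 0.0941, adjusted p = 0.0307), the groups overlapped at 24.5 to 29.1 and 26.9 to 36.3 CPM, and the adjusted p was 0.19 without treated libraries 1 and 5. Slc31a2, at 10.7 to 12.5 CPM with vehicle and 10.5 to 13.9 CPM with oxaliplatin, was not past the threshold (log2 fold change 0.11, 95% interval -0.11 to 0.33, adjusted p = 0.457).

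Of the efflux pumps, Abcb1a was at 8.14, 6.71, 3.63, 6.88 and 6.60 CPM in the vehicle kidneys and at 12.5, 8.25, 7.80, 11.9 and 10.9 CPM in the treated ones. The groups overlapped, since vehicle library 1 lay above treated library 3, and vehicle library 3 stood lowest. The means were 6.39 ± 1.66 and 10.25 ± 2.11 CPM (log2 fold change 0.68, SE 0.187, adjusted p = 0.0127). The call was lost without treated libraries 1 and 5 (log2 fold change 0.55, adjusted p = 0.0798) and without vehicle library 3, when the change was 0.54 and under 1.5-fold. Abcb1a and its paralog Abcb1b are so alike in sequence that reads may be divided between them, and a gene model of uncertain status shares 553 exon bases with Abcb1a on the opposite strand, so its own value is uncertain. With the counts of both paralogs added together, an alternative chosen after seeing the data, the log2 fold change was 1.43 (edgeR adjusted p = 0.00497). Abcb1b by itself went from 8.71 ± 2.06 to 30.6 ± 12.6 CPM, so the sum largely follows Abcb1b and does not settle the value of Abcb1a. Abcc2, the apical pump for conjugates, was at 353 to 434 CPM with vehicle and at 391 to 441 CPM with oxaliplatin and did not pass the threshold (log2 fold change 0.08, 95% interval -0.07 to 0.24, adjusted p = 0.413). That interval excluded a change of 1.5-fold in either direction.

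The falls of Slc22a2 and Slc47a1 were compared with a list of proximal tubule genes in the same libraries. Of 12 proximal tubule genes, 3 were called and all of these were lower with oxaliplatin, and the summed level of the 12 went from 22860 to 26010 CPM with vehicle to 18960 to 22520 CPM with treatment. The median log2 fold change over the list was 0.02, beside 0.02 for all kidney genes tested. Past the adjusted p but under 1.5-fold, Cubn (0.32), Slc5a12 (0.42) and Slc4a4 (0.31), named after their values were seen, were higher (edgeR adjusted p of 0.00802, 0.00701 and 0.0055), and Slc34a1 (-0.28) and Hnf4a (-0.36) were lower (0.0358 and 0.00207). The 3 called genes were Slc22a6 (1.99-fold lower), the organic anion transporter OAT1, with Slc13a3 (log2 fold change -0.59), a dicarboxylate carrier, and Miox (-0.60), which oxidises inositol. Relative to the mean log2 CPM of the 12 genes in the same library, Slc22a2 was lower by a log2 difference of -0.85 and Slc47a1 by -0.62 (exact two-sided permutation test over all divisions of the 10 libraries into 5 and 5, p = 0.00794, the smallest these can give, adjusted p = 0.0119 over 3 genes), with no overlap between the groups. Slc22a2 and Slc47a1 had already differed without overlap in these libraries, and the list median was 0.02, so their p-values add no separate evidence. Abcc2 differed by 0.21 in the other direction (exact permutation test, adjusted p = 0.0397), with overlap. For Abcc2 that difference held in only some of the fits that left out 1 library.

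Genes with sex-biased expression in mouse kidney moved in the same libraries. Of 7 genes known for higher expression in males, 6 were lower with oxaliplatin, among them Kap (log2 fold change -1.90), a kidney protein induced by androgen, and Slco1a1 (-3.63), an organic anion carrier. Their summed level was 13530, 12430, 14610, 14060 and 15050 CPM in vehicle libraries 1 to 5 and 2571, 6096, 6296, 4871 and 1543 CPM in treated libraries 1 to 5, so that treated libraries 5 and 1, the lowest for Slc22a2 and Slc47a1, were also the lowest for these genes. Of 4 genes listed as female-biased, Cyp4a14, Slc7a12 and Prlr were higher and Cyp2d9 was lower, although the place of Cyp2d9 on that list is doubtful. Endothelial genes summed to 333.4 to 356 CPM with vehicle and 408.7 to 663 CPM with oxaliplatin, with 3 of 7 higher, and of the tubular injury genes Lcn2 and Spp1 were higher while Havcr1 was at 0.936 ± 0.297 and 1.01 ± 0.385 CPM. Adipocyte genes summed to 20.1 to 41.7 CPM with vehicle and to 176, 60.4, 74.1, 95.7 and 162 CPM in treated libraries 1 to 5, with 4 of 5 tested higher, and treated libraries 1 and 5 were the highest. Erythroid genes summed to 193 to 304 CPM with vehicle and to 39.6, 481, 158, 464 and 40.5 CPM in treated libraries 1 to 5. Treated libraries 1 and 5 were thus also the lowest for the erythroid sum, although 0 of 5 erythroid genes tested were called. Macrophage genes went from 100.9 to 132 CPM to 59.4 to 71.7 CPM (4 of 6 lower), podocyte genes from 219 to 227 CPM to 318 to 389 CPM (2 of 3 higher), and collecting duct genes from 353 to 480 CPM to 500.4 to 618 CPM (1 of 4 higher). The 1 collecting duct gene called was Slc4a1 (log2 fold change 0.69), which was not specific to kidney. The part of these differences in the results for Slc22a2, Slc47a1 and Abcb1a was not tested.

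**Figure D3:**
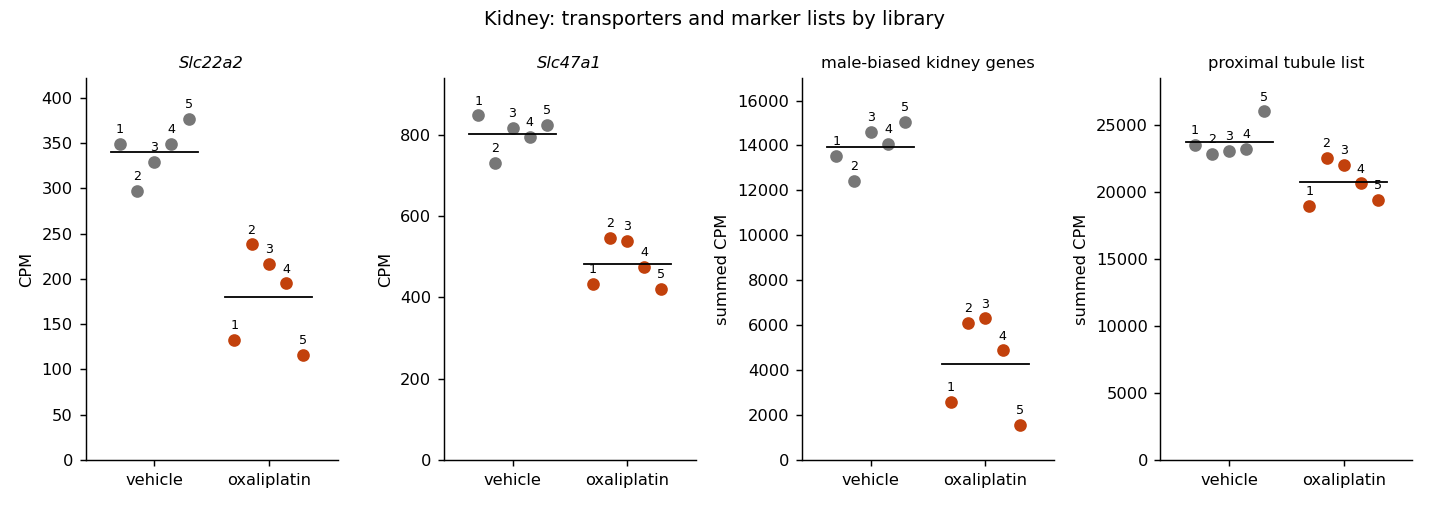
Kidney values by library for Slc22a2 and Slc47a1 (CPM) and for the summed CPM of 7 male-biased kidney genes and of 12 proximal tubule genes; digits give the library number, lines the group mean. Treated libraries 1 and 5 are lowest in all 4 panels, and only the proximal tubule sum has treated libraries (18960 to 22520 CPM) close to the vehicle ones.

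In bone marrow the comparison asked whether the same carriers changed in the organ of blood formation. Of 8 transporters tested, 2 were called, against 23.3% of all marrow genes, so the share was near the background. Of all marrow genes 11.6% were higher and 11.8% lower, and 1 transporter went each way. Slc22a3, the member of the Slc22 pair at the higher level in marrow, rose 2.00-fold, and Atp7b, a copper pump, fell 2.32-fold. The other 6 were not called.

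Slc22a3 was at 9.87, 8.82, 8.10, 10.0 and 7.02 CPM in vehicle libraries 1 to 5 and at 18.9, 14.6, 20.8, 21.2 and 12.1 CPM in treated libraries 1 to 5. All treated libraries lay above all vehicle libraries, with library 5 the lowest in each group. The means were 8.76 ± 1.25 and 17.5 ± 3.99 CPM, a 2.00-fold rise (log2 fold change 1.00, SE 0.170, adjusted p = 0.000542), and 216 to 954 reads lay behind each value. Its exons share 420 bases with Plg on the opposite strand, and whether counting used the strand is not given in the sources used here.

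Atp7b (ENSMUSG00000006567, chr8:21992785-22060305, minus strand) was at 59.6, 55.4, 52.8, 51.5 and 40.8 CPM with vehicle and at 9.65, 23.3, 33.8, 27.3 and 18.2 CPM with oxaliplatin. The treated libraries lay below all vehicle libraries, with library 1 the lowest and library 3 the highest. The means were 52.0 ± 6.98 and 22.4 ± 9.15 CPM (log2 fold change -1.21, SE 0.261, adjusted p = 0.00341). Absence of overlap, as for these 2 genes, was seen for 24.9% of all marrow genes.

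Slc31a1 was at 27.5 to 34.0 CPM with vehicle and at 31.3 to 39.9 CPM with oxaliplatin, with overlap through vehicle library 4. Its log2 fold change of 0.27 had an adjusted p of 0.0487, which was lost in 10 of 18 alternatives. Slc31a2, the copper transporter at the highest level in marrow, was at 30.6, 39.5, 37.6, 35.7 and 39.9 CPM with vehicle and at 44.8, 50.1, 20.8, 28.3 and 54.6 CPM with oxaliplatin. Its treated libraries lay on both sides of the vehicle range, and the fold change was not past the threshold (log2 0.11, 95% interval -0.37 to 0.60, adjusted p = 0.742). Atp7a showed the same spread in smaller measure, at 33.7 to 38.6 CPM with vehicle and 25.7 to 46.4 CPM with oxaliplatin (log2 fold change 0.06, 95% interval -0.24 to 0.35, adjusted p = 0.786). For both genes treated library 3 was the lowest and treated library 5 the highest, and the summed neutrophil genes had the same extremes, at 7654 and 18710 CPM, beside 13550 to 16510 CPM with vehicle.

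The efflux pumps were low in marrow. Abcc2 was at 4.13 to 5.52 CPM with vehicle and 2.75 to 5.66 CPM with oxaliplatin (log2 fold change -0.02, 95% interval -0.45 to 0.42, adjusted p = 0.965), and treated library 3 was again the lowest. Abcb1a was at 1.98 to 3.12 CPM with vehicle and 1.47 to 4.95 CPM with oxaliplatin (log2 fold change 0.44, 95% interval -0.22 to 1.09, adjusted p = 0.3). The sum of Abcb1a and Abcb1b, chosen after seeing the data, rose by 0.72 on the log2 scale (edgeR adjusted p = 0.000493). Most of that sum was Abcb1b, at 8.92 ± 0.446 CPM with vehicle and 15.3 ± 1.92 CPM with oxaliplatin. The rise of the sum therefore does not show a rise of Abcb1a itself. The tubular cation carriers were at the limit of counting: Slc22a2 had 0 to 10 reads with vehicle and 4 to 39 with oxaliplatin (log2 fold change 1.46, 95% interval 0.01 to 2.92, adjusted p = 0.115), and Slc47a1 had 0 to 2 and 2 to 14 reads and was not tested.

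Marker genes of several marrow cell types moved with treatment. Of 6 adipocyte genes 6 were higher, and their sum went from 76.2 to 143 CPM with vehicle to 2284, 1046, 2336, 2460 and 492 CPM in treated libraries 1 to 5. Libraries 4, 3, 1, 2 and 5, from high to low, stood in the same order for Slc22a3. Of 7 erythroid genes 7 were lower. Their sums were 19210 to 35000 CPM with vehicle and 4976, 6645, 3811, 2163 and 3448 CPM in treated libraries 1 to 5. Hba-a1 and Hbb-bs, at means of 13460 and 10760 CPM with vehicle, made up most of that sum. Vehicle library 5 was the lowest of its group for both Atp7b and the erythroid sum. Among treated libraries, library 1 was lowest for Atp7b and library 4 for the erythroid sum. Of 6 B cell genes 5 were lower (236 to 425 CPM summed against 55.6 to 75.8), of 5 megakaryocyte genes 5 were higher (696 to 1075 against 1331 to 1782), and of 7 endothelial genes 4 were higher (232 to 293 against 309 to 573). Of 6 macrophage genes 3 were higher (929 to 1202 against 1009 to 1903), and of 5 stem and progenitor genes 3 were higher (34.4 to 44.0 against 44.8 to 59.3). The median log2 fold change of 7 neutrophil genes was -0.18. The part of these cells in the results for Slc22a3 and Atp7b was not tested.

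**Figure D4:**
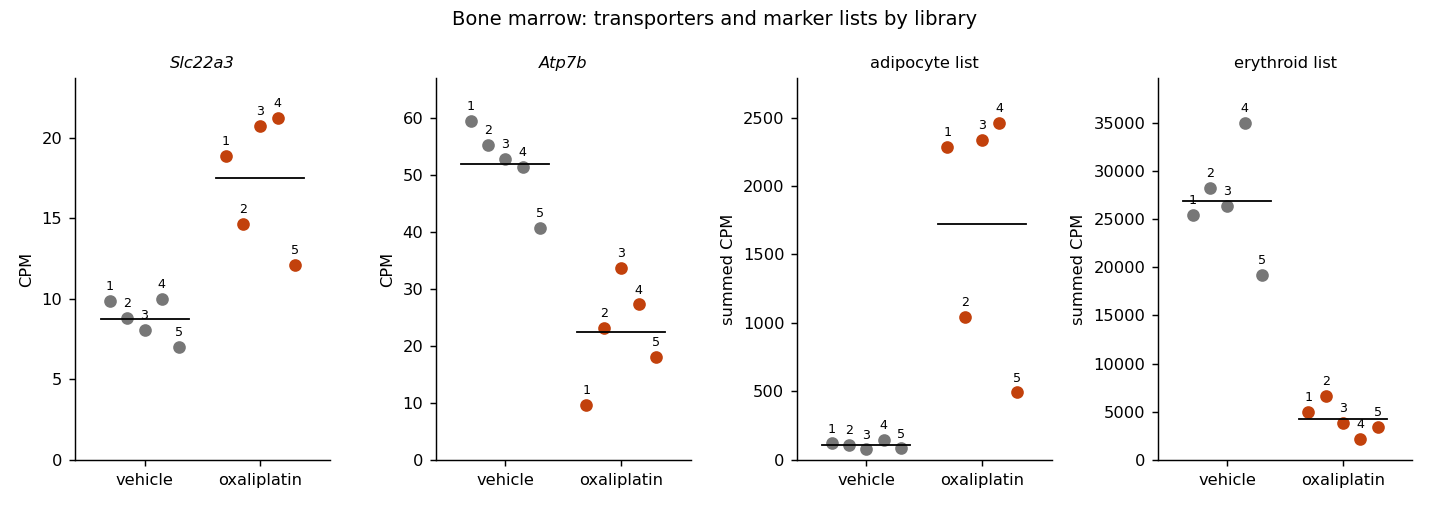
Bone marrow values by library for Slc22a3 and Atp7b (CPM) and for the summed CPM of 6 adipocyte genes and 7 erythroid genes; digits give the library number, lines the group mean. Slc22a3 and the adipocyte sum place the 5 treated libraries in one order, with library 5 lowest at 12.1 and 492 CPM. Atp7b is lowest in treated library 1 and the erythroid sum in treated library 4, and among vehicle libraries both are lowest in library 5.

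Whether treatment acted differently in the 2 organs was tested as the tissue by treatment interaction over all 20 libraries, in which 30.1% of 24321 genes had an adjusted p under 0.05. Leaving aside the 2 transporters that passed the filter of that fit through kidney alone, 2 of the other 7 did, Slc31a1 and Slc22a3. In both the change was lower in kidney than in marrow, as in 17% of all genes. Slc31a1 differed by -0.74 on the log2 scale (SE 0.124, adjusted p = 9.37e-05), with a fold change of -0.40 in kidney and 0.27 in marrow and 874 reads or more behind each value. Slc22a3 differed by -1.23 (SE 0.385, adjusted p = 0.0182), and this was lost without kidney vehicle library 1, its highest kidney library at 2.20 CPM (log2 difference -0.87, adjusted p = 0.067). Atp7b was lower in both organs, and the difference of 0.71 between them did not pass (95% interval 0.07 to 1.36, adjusted p = 0.0903), although it did without marrow treated library 3 (0.94, adjusted p = 0.0149). For Slc31a2, Atp7a, Abcc2 and Abcb1a the differences lay between -0.05 and 0.20 with adjusted p of 0.449 or more. Slc22a2 (-2.49, SE 0.591, adjusted p = 0.00295) and Slc47a1 (-3.67, SE 0.572, adjusted p = 4.09e-05) entered that fit through kidney alone, and with at most 39 and 14 reads in a marrow library their marrow change was at the limit of counting, so they are not counted here.

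Other carriers that can move platinum drugs or organic ions were taken as a list of 21 genes. In kidney 20 were tested, and 5 were higher (7.68% of all genes were) and 1 lower (3.81% were). The median log2 fold change was 0.01, beside 0.02 for all genes. The 3 largest rises were those of Abcc3 (3.46 ± 0.509 to 12.3 ± 6.92 CPM, log2 fold change 1.83), a basolateral conjugate pump, Abcb1b (8.71 ± 2.06 to 30.6 ± 12.6 CPM, 1.81), the second P-glycoprotein gene, and Lrrc8e (1.02 ± 0.274 to 2.25 ± 0.835 CPM, 1.13), a subunit of volume-regulated anion channels. Tmem205, a membrane protein linked to cisplatin resistance, was the 1 that fell (156 ± 22.4 to 99.8 ± 19.8 CPM, -0.64). In marrow 17 were tested, and 2 were higher (11.6% of all genes were) and 4 lower (11.8% were). The median was -0.15, beside -0.04 for all genes. The rises were Lrrc8b (34.9 ± 3.75 to 66.8 ± 15.3 CPM, log2 fold change 0.94), another channel subunit, and Abcb1b (8.92 ± 0.446 to 15.3 ± 1.92 CPM, 0.78). The largest falls were Slc22a4 (49.9 ± 6.93 to 12.8 ± 1.74 CPM, -1.97), the ergothioneine transporter, Abcc3 (41.8 ± 3.78 to 15.2 ± 3.46 CPM, -1.46) and Abcg2 (96.8 ± 12.8 to 52.7 ± 13.3 CPM, -0.88), the breast cancer resistance protein. Abcb1b rose in both organs, while Abcc3 rose in kidney and fell in marrow.

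Genes that handle copper after its entry were taken as a list of 20. In marrow 18 were tested, and 7 were higher (11.6% of all genes were) and 2 lower (11.8% were). The median log2 fold change was 0.42, beside -0.04 for all genes. The largest rises were Sod3 (2.73 ± 1.04 to 29.3 ± 14.7 CPM, log2 fold change 3.42), extracellular superoxide dismutase, Lox (17.2 ± 1.40 to 78.8 ± 24.4 CPM, 2.20), the copper enzyme that cross-links collagen, and Steap4 (17.6 ± 2.66 to 75.2 ± 22.6 CPM, 2.10), a metalloreductase. The falls were Steap3 (86.9 ± 7.92 to 47.8 ± 16.4 CPM, -0.86), the ferrireductase of red cell precursors, and Cox11 (6.48 ± 1.2 to 4.15 ± 1.13 CPM, -0.64), which inserts copper into cytochrome oxidase. In kidney 19 were tested, and 3 were higher (7.68% of all genes were) and 2 lower (3.81% were). The median was -0.12, beside 0.02 for all genes. Lox (1.10 ± 0.244 to 18.3 ± 12.6 CPM, 4.06), Steap4 (0.544 ± 0.383 to 4.04 ± 1.52 CPM, 2.89) and Cp (23.6 ± 2.89 to 65.5 ± 21.1 CPM, 1.48), ceruloplasmin, were higher. Sod1 (856 ± 102 to 519.8 ± 92.9 CPM, -0.72), the cytosolic superoxide dismutase, and Steap3 (12.7 ± 1.02 to 8.21 ± 1.61 CPM, -0.63) were lower. The other 4 genes that rose in marrow, named after their values were seen, were Heph, Cp, Steap2 and Pam, with log2 fold changes of 1.38, 1.17, 1.83 and 0.94.

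**Figure D5:**
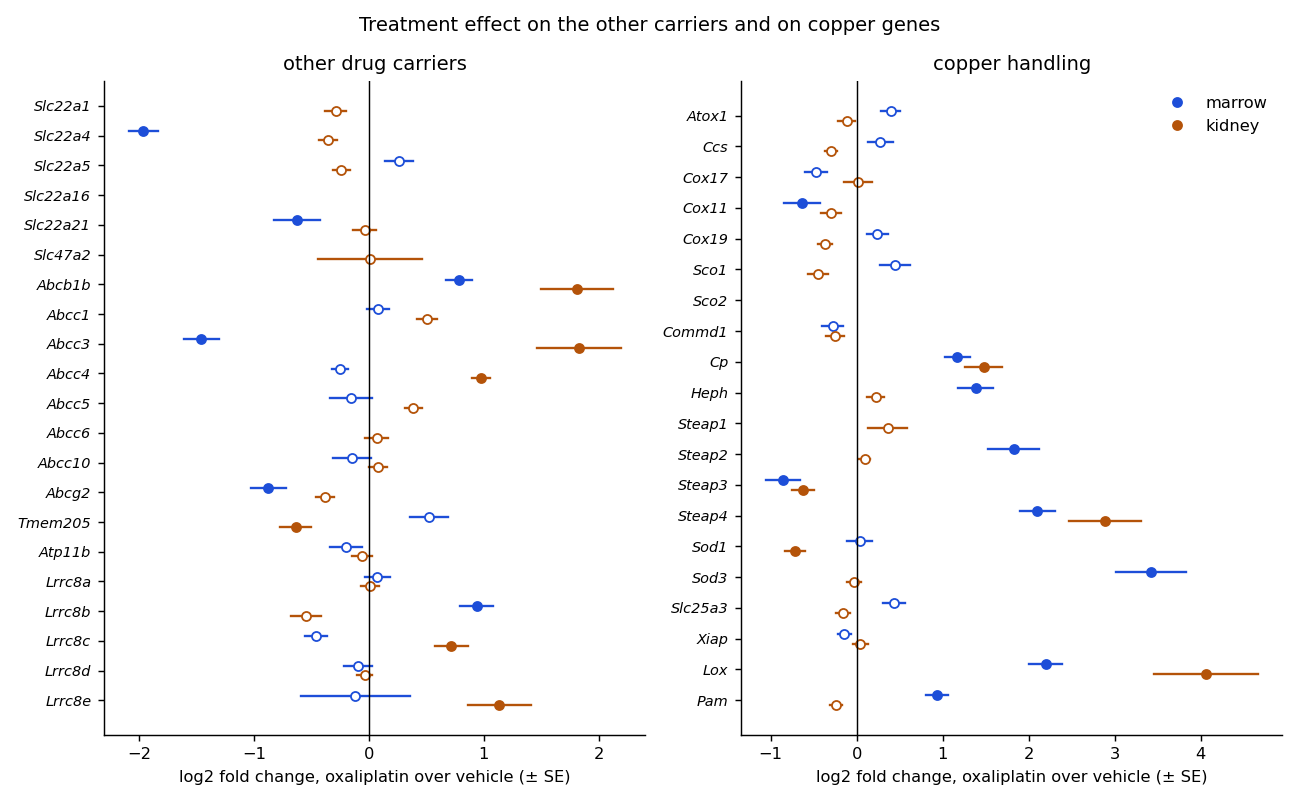
Log2 fold change of oxaliplatin over vehicle with its SE for 21 other carriers (left) and 20 copper genes (right), in marrow (blue) and kidney (brown); filled points were called, and genes without a point were not tested in that organ. Abcc3 lies at 1.83 in kidney and -1.46 in marrow, whereas Lox and Steap4 are to the right of 2 in both.

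For each called transporter, the 2 genes whose log2 CPM were most like it over the 10 libraries of the organ were found by Pearson's r, a description in which the treatment difference itself takes part. They were Slc6a20b (r = 0.995) and Slc22a6 (0.993) for Slc22a2 in kidney, among 13634 genes, and Amacr (0.996) and Ephx2 (0.996) for Slc47a1. Slc22a6 is the tubular anion counterpart of Slc22a2, and Amacr and Ephx2 encode enzymes of lipid metabolism. For Abcb1a in kidney they were Cyp4a14 (0.948) and Zfp764 (0.942). In marrow, among 14648 genes, they were Fitm2 (0.992), a protein of lipid droplet formation, and Cstb (0.988) for Slc22a3, and Myo1d (0.987) and H2bu1-ps (0.986) for Atp7b.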

How the data were processed

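RNA of 20 libraries was sequenced by the authors, who deposited a raw count per gene and library for each tissue, without normalization. According to the methods, reads were aligned with STAR to Ensembl release 101 and uniquely aligned, unambiguous reads were counted in Partek Flow, whereas the submitters' processing notes name featureCounts. The library kit is also given differently in the methods (SMARTer) and the labels (removal of ribosomal RNA, random hexamers). Counting only uniquely aligned reads can undercount paralogs of similar sequence, such as Abcb1a and Abcb1b, and the size of this effect was not measured. Of the 55774 lines of each table, 287 repeated identifiers and 1 incomplete line were dropped. After a filter on low counts (filterByExpr, minimum 10) and TMM scaling, edgeR (version 4.0.16, under R 4.3.3) was used with its robust, two-sided quasi-likelihood test, per tissue for treatment and over 20 libraries for the tissue difference and the interaction, with Benjamini-Hochberg adjustment over all genes tested. CPM are scaled within a tissue unless stated, and RPKM are divided by the exon bases of GENCODE release M21. A floor of 3 counts corresponds to 0.0668 to 0.0975 CPM in marrow and 0.0900 to 0.13 CPM in kidney, for counting error only. The transporters and lists were chosen with earlier results of these data known. All 9 transporters were named, with up to 3 rises and 3 falls per list and tissue and the 2 genes most like each called transporter. The alternatives included DESeq2 1.42.0, other scalings and filters, a replicate block, Y-linked expression as a covariate, and each library left out. The steps were tested on simulated data.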

Additional observations from a re-analysis of the deposited data

Results flagged for a closer look

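For Slc22a3 and Slc31a1 the treatment effect differed between kidney and marrow in edgeR's interaction test, with a log2 change in kidney minus that in marrow of -1.23 and -0.74. The same test gave -2.49 for Slc22a2 and -3.67 for Slc47a1, but their marrow change was at the limit of counting and gives no usable comparison. Of 36 sets of 5 libraries looked at, 2 held a library standing apart from the rest by Dixon's ratio, which chance does in about 5% of sets. Slc22a3 was at 2.20 CPM in kidney vehicle library 1, where the next library was at 1.13 CPM, and Slc31a1 was at 34.0 CPM in marrow vehicle library 4, where the next was at 29.2 CPM. The cause of either was not tested.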

How the results depend on the processing

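Slc22a2 and Slc47a1 in kidney and Slc22a3 and Atp7b in marrow were called in each of the 18 alternatives run for each of them. Scaling by library size alone turned the kidney against marrow difference of Atp7a to -0.41 and raised the percentage of higher genes among those called from 66.8% to 82.7% in kidney and from 49.6% to 63.4% in marrow, since it moved the median log2 fold change of all genes to 0.16 and 0.11. The difference of Abcc2 from the proximal tubule genes ran from 0.158 to 0.248 when 1 kidney library was left out and lost its call (exact permutation test) without treated library 1, 4 or 5 or vehicle library 3, 4 or 5. Genes called numbered 1520 to 2715 in kidney and 4469 to 5844 in marrow over the alternatives. Same-numbered libraries showed no steady tendency to deviate together (r from -0.154 to 0.228), and the sources used here do not say whether a number marks the same mouse in both organs, so the numbers were not used to pair libraries. With the replicate block 2017 genes were called in kidney and 4968 in marrow, against 2216 and 5221 without it, and the interaction of Atp7b then passed (0.82, adjusted p = 0.0213), while Atp7a in kidney and Slc31a1 in marrow did not (adjusted p = 0.0813 and 0.0963). Without the filter on low counts Slc47a1 had a log2 fold change of 2.89 in marrow (adjusted p = 0.0544). A comparison among libraries without Y-linked expression was not run, since every library had it. Depth limits Slc22a2 and Slc47a1 in marrow and Slc22a3 in kidney.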
